A study of Mus musculus with 9 samples.

Results

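Mouse embryonic stem cells (ESCs) sorted as carrying no extra copy of Myc from induced mosaic cultures were compared with cells of uninduced cultures of the same line. All 6 libraries of these groups, 3 against 3, were taken out of 9 in the series by their labels, and the comparison covered the 13424 of 35771 genes that passed a filter on low counts. All cells were homozygous for iMOS T1-Myc, on a mixed background, and carried RERT. RERT makes recombination depend on 4-hydroxytamoxifen, and recombination of the iMOS allele leaves cells with 2, 1 or 0 extra copies of Myc, each copy marked by the yellow fluorescent protein EYFP. Cultures were given 20 µM of the drug for 24 h and sorted by EYFP another 24 h after its removal, so the cells described here grew beside cells with extra Myc. Uninduced cells were sorted too, although the labels repeat the drug treatment for them. Every culture grew on gelatin in 2xLIF medium, without a layer of feeder cells named in the labels. The remaining 3 libraries, of cells with 2 extra copies from the mosaic, served for values side by side. The comparison asks what differs in cells without extra Myc that grew in an induced mosaic. Drug, recombination, the sorting gate and the neighbouring cells differed from the uninduced cultures together and cannot be told apart.

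Myc, a transcription factor, raises the output of growth genes, and in pluripotent cells of the early embryo cells with less Myc are known to be eliminated beside cells with more, a process called cell competition. ESCs keep an identity governed by Pou5f1, Sox2 and Nanog, and LIF holds them in the naive state. Pathways that recur below are the HIF response, in which low oxygen stabilises factors that induce glycolysis genes, and the ATF4 response, in which amino acid or endoplasmic reticulum stress induces genes of amino acid supply. A further one is the SRF pathway, which links polymerised actin to the transcription of actin and contractile genes.

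Library totals ran from 6545308 to 7952695 expected counts in uninduced cells and from 4165286 to 8872303 with no extra copy. Levels are given as CPM, counts scaled to a common library total, and genes with an adjusted p below 0.05 are called higher or lower. Each pair of replicates differed by more than sampling noise, at a chi-square over its degrees of freedom of 1.35 to 1.80 for uninduced cells and 1.41 to 1.58 for cells with no extra copy. The labels do not say that replicates are separate cultures, and p-values then measure only the spread between these samples. The correlation of a library's deviations with transcript length also differed, from 0.121 to 0.306 in uninduced libraries and from -0.0307 to 0.0801 with no extra copy. With that trend removed, 1985 genes were called. No row of the table held EYFP, and no mitochondrially encoded gene had a count.

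The level of Myc (ENSMUSG00000022346; GRCm38 chromosome 15, 61985391 to 61990374) was examined first. It stood at 11.5, 14.1 and 14.2 CPM in the uninduced libraries and 31.8, 30.6 and 32.4 CPM with no extra copy, so that all 3 libraries sorted for no extra copy lay above all 3 uninduced ones. The gain of 18.3 CPM was 14.2% of the gain of cells with 2 extra copies, whose libraries stood at 138, 147 and 141 CPM. Gene counts do not separate the endogenous from the transgenic transcript, so the purity of the sort for cells with no extra copy could not be checked, and its part in this gain was not tested. Its close relative Mycn fell by 1.23-fold (log2 -0.30, SE 0.0412, adjusted p = 2.22e-06). Of the 13 genes of the Myc network list, Myc was the 1 that rose and Mycn the 1 that fell (2 without replicate 1 with 2 extra copies). Over all genes tested, 7.1% were higher and 6.39% lower. The dimerisation partner Max stood at 89.4 ± 4.11 CPM and 88.6 ± 0.726 CPM (SD, n = 3 each here and below). Markers of ESCs were expressed in every library. Pou5f1 stood at 1103, 1118 and 1146 CPM and 1160.1, 1178 and 1187 CPM in the uninduced libraries and those with no extra copy, Sox2 at 378, 368 and 369.9 CPM and 339, 345 and 338 CPM, Zfp42 at 454, 442 and 434 CPM and 418, 413 and 437 CPM and Esrrb at 231, 245 and 231 CPM and 262, 262 and 269 CPM.

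The test called 1811 of 13424 genes (13.5%). With no extra copy, 953 were higher (7.1%) and 858 lower (6.39%). Both shares of all genes are the comparison for each list count against uninduced cells below. Most differences were small. The median size among called genes was 0.29 on the log2 scale, or 1.22-fold, and 1516 of the called genes (83.7%) changed by less than 1.5-fold. Changes of at least 2-fold were called in 59 genes upward (0.44%) and 34 downward (0.253%). The libraries of the groups did not overlap in 31.5% of the genes tested, 16.1% higher and 15.4% lower with no extra copy. At a mean level of 10 CPM or more, the largest called falls were in Ndrg1, Vldlr, Bnip3, Lef1, Egln3, Stc2, Mef2b, Ddit4, Ubap1l, Chac1, Ddit3, Nupr1, Ccng2, Vegfa and Atf5. The largest rises were in Col1a2, Krt18, Col1a1, Acta2, Krt8, Anxa1, Wnt7b, Tagln, Igf2, Myc, S100a6, Thbs1, Dsp, Anxa5 and H19. These 30 span 1.90-fold (from 99.1 ± 4.83 to 51.2 ± 5.06 CPM) to 3.01-fold for the falls and 1.95-fold to 3.66-fold (from 9.99 ± 0.676 to 36.4 ± 2.38 CPM) for the rises. Counting calls with DESeq2 in place of edgeR gave 806, and asking for a change beyond 1.2-fold gave 234. Without replicate 2 with no extra copy, the deepest library, 1177 were called. Where a list is given in the rest of the results with 0 members in a direction, 0 members passed an unadjusted p below 0.05 that way with edgeR, and DESeq2 and limma-voom called 0. The exceptions by unadjusted p were 1 endoplasmic reticulum chaperone and 1 extraembryonic endoderm marker higher, 3 sterol genes higher, 1 IGF axis gene and 1 interferon-stimulated gene lower, and 3 ribosomal protein genes higher and 2 lower.

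**Figure D1:**
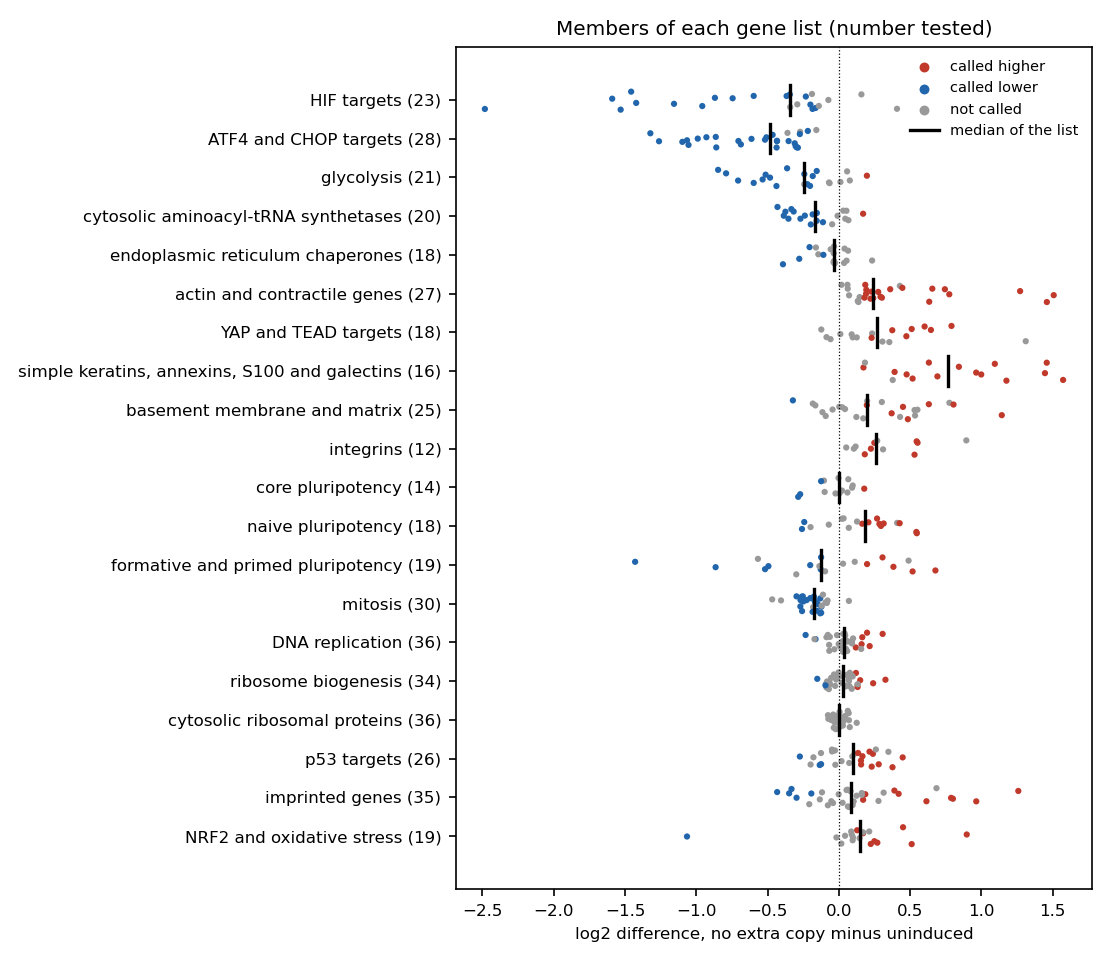
Each point is 1 tested gene of the list named on the left, placed by its log2 difference between cells with no extra copy and uninduced cells, and coloured by whether it was called; the black bar is the list's median. The lists of HIF targets, ATF4 and CHOP targets and glycolysis lie mostly to the left of 0 and those of actin and contractile genes and of keratins and annexins to the right, while cytosolic ribosomal proteins stay close to 0.

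Genes that low oxygen induces through HIF were lower with no extra copy. Of the 23 members tested, 16 fell and 0 rose, against 6.39% of all genes lower, and their median log2 difference was -0.34, against 0.0022 over all genes tested. Bnip3 (ENSMUSG00000078566; GRCm38 chromosome 7, 138890836 to 138909519), a mitochondrial protein that promotes mitophagy, stood at 63.0, 44.7 and 55.3 CPM in the uninduced libraries and 21.1, 18.5 and 20.0 CPM with no extra copy. It fell by 2.75-fold (log2 -1.46, SE 0.113, adjusted p = 1.01e-08), and the groups did not overlap; a near-identical annotated copy of Bnip3 can share its reads. Egln3, the prolyl hydroxylase that marks HIF for degradation and is itself a HIF target, stood at 32.5, 24.8 and 31.7 CPM in the uninduced libraries and 11.4, 10.4 and 11.7 CPM with no extra copy, again without overlap, a fall of 2.68-fold (log2 -1.42, SE 0.120, adjusted p = 8.91e-11). The stress-responsive Ndrg1 stood at 34.2, 26.1 and 29.7 CPM in the uninduced libraries and 9.52, 10.2 and 10 CPM with no extra copy, which is 3.01-fold lower. Ddit4, an inhibitor of mTORC1, fell from 233 ± 22.2 to 104 ± 5.97 CPM. Vegfa, the angiogenic growth factor, stood at 67.5, 62.5 and 64.5 CPM in the uninduced libraries and 32.8, 33.0 and 34.5 CPM with no extra copy, and all uninduced libraries were higher. The members not called include Ak4, a mitochondrial adenylate kinase, at 53.4 ± 4.86 CPM and 51.0 ± 3.31 CPM, and Higd1a at 42.0 ± 1.06 CPM and 38.4 ± 2.52 CPM.

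The HIF binding core, the letters ACGTG on either strand, was looked for from 250 bases before to 50 after the annotated start, in RefSeq promoters of GRCm38.p6. Of the 18 members with an entry there, 14 held it, against 19.62% of all 32851 promoters and 29.47% of the 10212 tested genes with one. Another motif, the E-box CACGTG bound by Myc and Max, contains these letters, and 3 of the 14 held it. Sequences are shown for 3 members with some of the largest falls, to show where the core lies; capitals mark ACGTG on either strand and, where it spans one, the E-box. The stretch of Bnip3 is chr7:138909583-138909640 on the minus strand, that of Egln3 is chr12:54204073-54204124 on the minus strand and that of Ddit4 is chr10:59951927-59951983 on the minus strand, each printed 5′ to 3′ on the gene's strand. A match is a description of the letters, not of binding. The list was made of known HIF targets, and the 14 with the core include Ak4 and Higd1a, which were not called. A link of the core to the falls was not tested.
Bnip3: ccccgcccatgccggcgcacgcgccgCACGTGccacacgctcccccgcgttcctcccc
Egln3: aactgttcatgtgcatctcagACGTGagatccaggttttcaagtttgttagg
Ddit4: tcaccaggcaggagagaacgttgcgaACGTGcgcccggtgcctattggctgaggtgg

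Glycolysis genes, several of them HIF targets too, were lower as well. Of 21 tested, 14 fell and 1 rose, with a median log2 difference of -0.24. Phosphofructokinase Pfkp stood at 202, 182 and 194 CPM in the uninduced libraries and 118, 117 and 119 CPM with no extra copy, and fell by 1.63-fold (log2 -0.71, SE 0.0471, adjusted p = 3.56e-13). Pgk1, phosphoglycerate kinase, which has near-identical copies in the annotation, stood at 706, 628 and 669 CPM in the uninduced libraries and 469, 465 and 469 CPM with no extra copy, a fall of 1.43-fold (adjusted p = 7.28e-12). In both genes each of the 3 uninduced libraries was above each of those with no extra copy. The glucose transporter Slc2a1 fell from 728 ± 21.3 to 481 ± 24.5 CPM, aldolase Aldoa from 915 ± 44.6 to 654 ± 16.6 CPM, and the lactate exporter Slc16a3 from 65.3 ± 5.98 to 36.3 ± 1.83 CPM. Lactate dehydrogenase Ldha fell by 1.35-fold, to 599 ± 7.17 CPM, and stood at 937 ± 23.9 CPM in cells with 2 extra copies, 1.56-fold lower with no extra copy than there (adjusted p = 3.38e-15). Genes not called include Gapdh, at 5462 ± 255 CPM and 5205 ± 13.8 CPM, and Pgam1, at 870.1 ± 20.1 CPM and 831 ± 17.2 CPM. Pfkm was the 1 that rose, from 55.3 ± 1.73 to 63.9 ± 3.93 CPM (adjusted p = 0.0382), a call that ended without uninduced replicate 2 or 3 or without replicate 1 or 3 with no extra copy.

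The stress response driven by ATF4 and its partner CHOP gave the highest share of falls among the 45 lists. Of 28 genes tested 25 fell and 0 rose, with a median log2 difference of -0.49. Ddit3, which encodes CHOP itself, stood at 28.7, 26.3 and 25.1 CPM in the uninduced libraries and 14.4, 11.8 and 12.6 CPM with no extra copy, 2.08-fold lower (log2 -1.05, SE 0.111, adjusted p = 1.41e-08). Asns, asparagine synthetase, stood at 386, 399.8 and 399 CPM in the uninduced libraries and 235, 247 and 245 CPM with no extra copy, a fall of 1.63-fold (log2 -0.70, SE 0.0409, adjusted p = 1.73e-14). Psat1, an enzyme of serine synthesis, stood at 647, 648 and 649 CPM in the uninduced libraries and 415, 432 and 424 CPM with no extra copy, a fall of 1.53-fold (adjusted p = 1.53e-14). In these 3 genes the groups were far apart compared with the spread inside them. Chac1, which degrades glutathione, fell from 74.6 ± 5.25 to 34.6 ± 2.23 CPM. The secreted glycoprotein Stc2 fell from 65.6 ± 2.70 to 27.1 ± 0.887 CPM, and the mitochondrial enzyme Pck2 from 132 ± 4.86 to 73.1 ± 3.64 CPM. Slc7a11, the cystine transporter, fell from 10.3 ± 1.18 to 5.11 ± 1.15 CPM, and the stress-induced Nupr1 from 47.2 ± 6.92 to 23.2 ± 3.49 CPM. The members not called include Ppp1r15a, a phosphatase subunit that ends the response, at 53.4 ± 4.2 CPM and 47.7 ± 1.97 CPM (adjusted p = 0.148).

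Enzymes that charge transfer RNA with amino acids, many of them induced by ATF4, were mostly lower. Of the 20 cytosolic aminoacyl-tRNA synthetases tested 13 fell and 1 rose, with a median log2 difference of -0.17. Nars, for asparagine, stood at 669, 709 and 665 CPM in the uninduced libraries and 497, 516 and 502 CPM with no extra copy, 1.35-fold lower (log2 -0.43, SE 0.0377, adjusted p = 2.21e-10). Lars, for leucine, fell by 1.31-fold, Gars, for glycine, by 1.30-fold, Cars, for cysteine, by 1.26-fold and Aars, for alanine, by 1.25-fold. Kars, for lysine, rose from 306 ± 5.47 to 345 ± 9.94 CPM (adjusted p = 0.00175). Qars, for glutamine, at 227 ± 5.81 CPM and 238 ± 13.8 CPM, and Rars, for arginine, at 184 ± 4.15 CPM and 187 ± 3.82 CPM, were not called. Chaperones of the endoplasmic reticulum, which answer to the other arms of the unfolded protein response, had 4 falls and 0 rises among 18 tested, against 6.39% of all genes lower, and the median log2 difference was -0.04. Herpud1 fell from 35.9 ± 2.05 to 27.3 ± 2.5 CPM, while the chaperone known as BiP, Hspa5, stood at 648 ± 19.3 CPM and 635 ± 12.4 CPM and was not called.

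The composite element bound by ATF4, searched as TGATGNAA on either strand, was found in 8 of the 24 stress genes with a promoter entry and in 5 of the 12 synthetases with one. It was present in 3.969% of all promoters and in 2.664% of the tested genes with a promoter entry. The stress list was made of known targets, and a link of the element to the falls was not tested. Stretches of Chac1 (chr2:119351023-119351082 on the plus strand), Pck2 (chr14:55540137-55540196 on the plus strand), Slc7a11 (chr3:50443646-50443705 on the minus strand) and Gars (chr6:55037945-55038000 on the plus strand) are shown from the same RefSeq windows, 5′ to 3′ on the gene's strand, because they are named above and hold a match upstream of the first exon. Capitals mark each match, which in Slc7a11 occurs once in each orientation.
Chac1: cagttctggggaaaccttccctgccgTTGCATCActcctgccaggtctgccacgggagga
Pck2: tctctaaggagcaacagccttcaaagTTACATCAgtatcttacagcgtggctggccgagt
Slc7a11: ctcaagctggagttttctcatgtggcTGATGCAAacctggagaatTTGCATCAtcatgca
Gars: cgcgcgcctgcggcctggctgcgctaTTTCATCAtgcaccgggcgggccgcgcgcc

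**Figure D2:**
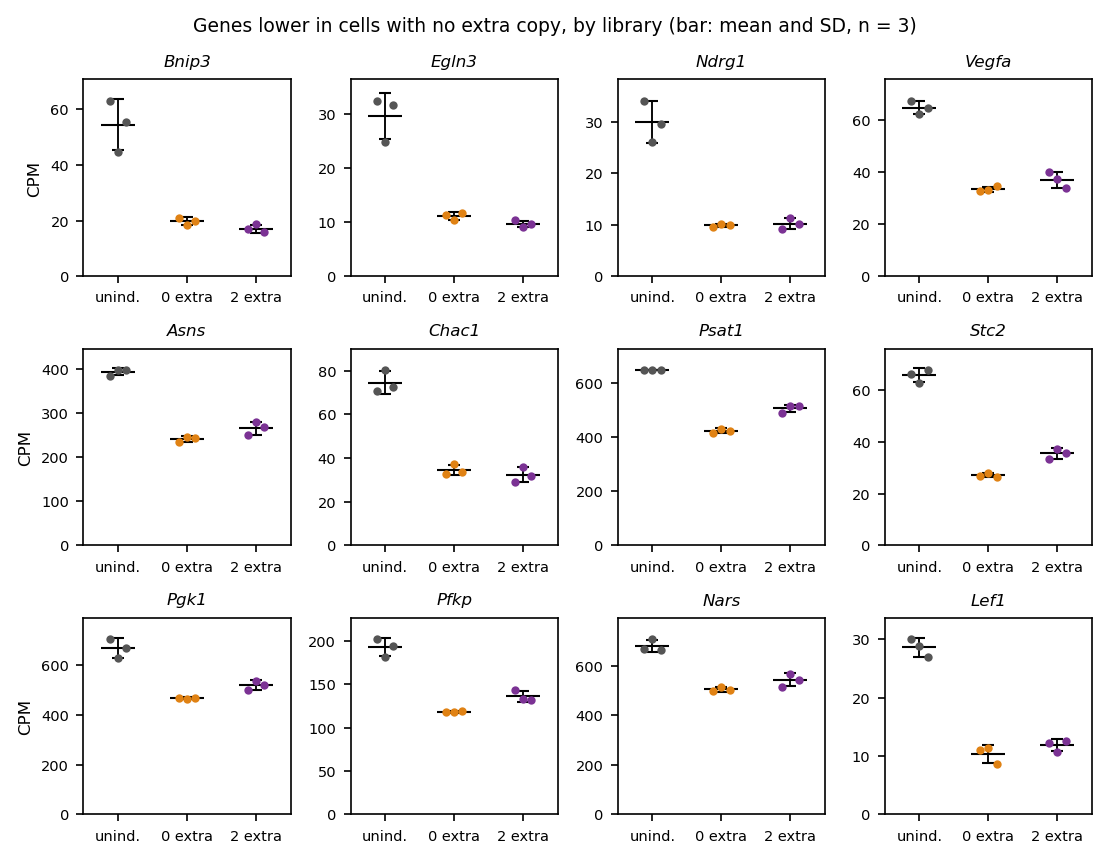
Each panel gives 1 gene's CPM (vertical axis, from 0) in the 3 uninduced libraries, the 3 with no extra copy and the 3 with 2 extra copies; points are libraries, and bars are the mean and SD. In all 12 panels the libraries with no extra copy lie below every uninduced library, as in Bnip3, at 54.3 CPM on average in uninduced cells and 19.9 CPM with no extra copy.

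Cells with 2 extra copies from the mosaic are set side by side with these falls, since both comparisons use the same uninduced libraries. The median log2 difference from uninduced was -0.34 without extra copies and -0.35 with 2 for HIF targets. It was -0.49 and -0.45 for ATF4 and CHOP targets, and -0.24 and -0.20 for glycolysis. For the synthetases it was -0.17 and -0.03. Tested directly between the induced populations, 2 HIF targets were higher and 2 lower with no extra copy, where 7.7% of all genes were higher and 8.3% lower. Of the stress genes 1 was higher and 9 lower, and of the synthetases 0 and 11. Bnip3 stood at 19.9 ± 1.28 CPM and 17.1 ± 1.41 CPM, and Slc2a1 at 481 ± 24.5 CPM and 388 ± 28.1 CPM, 1.24-fold higher with no extra copy (adjusted p = 7.39e-05). Stc2 at 35.5 ± 1.96 CPM and Psat1 at 506 ± 13.5 CPM with 2 extra copies were both above their level with no extra copy (adjusted p = 0.00168 and adjusted p = 3.62e-06).

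Genes of actin and the contractile apparatus were higher with no extra copy. Of 27 tested, 19 rose and 0 fell, against 7.1% of all genes higher, with a median log2 difference of 0.24. Acta2 (ENSMUSG00000035783; GRCm38 chromosome 19, 34241090 to 34255590), smooth muscle actin, stood at 17.3, 21.0 and 17.4 CPM in the uninduced libraries and 49.1, 55.6 and 47.4 CPM with no extra copy, 2.75-fold higher (log2 1.46, SE 0.0948, adjusted p = 2.25e-13). Tagln, an actin-binding protein, stood at 32.9, 34.4 and 36.3 CPM in the uninduced libraries and 78.9, 86.0 and 84.5 CPM with no extra copy, 2.41-fold higher (log2 1.27, SE 0.0693, adjusted p = 8.49e-15). Tropomyosin Tpm1 stood at 159, 176 and 165 CPM in the uninduced libraries and 254, 272 and 262 CPM with no extra copy, a rise of 1.57-fold (log2 0.66, SE 0.0433, adjusted p = 3.17e-13). The groups did not overlap in any of these 3 genes. Skeletal actin Acta1, at a low level, rose from 4.46 ± 0.952 to 12.7 ± 2.54 CPM, and caldesmon Cald1 from 60.8 ± 3.09 to 93.8 ± 7.60 CPM. The abundant cytoplasmic actins were not called: Actb stood at 2569.8 ± 28.8 CPM and 2603 ± 57.3 CPM, and Actg1, which has near-identical copies, at 1121 ± 33.5 CPM and 1178 ± 19 CPM. In bulk libraries, more cells of a type and more RNA per cell cannot be told apart.

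The SRF binding site known as the CArG box was found on either strand in 8 of the 24 actin-list members with a promoter entry. It was present in 1.629% of all promoters and in 1.518% of the tested genes with an entry. It is shown for Acta1 (chr8:123894813-123894874 on the minus strand) and, chosen after their values were seen, for Myl9 (chr2:156775277-156775338 on the plus strand) and Srf (chr17:46556209-46556270 on the minus strand), with capitals marking each box, 5′ to 3′ on the gene's strand, from the same RefSeq windows. Srf encodes the factor itself and held a pair of boxes close together. The 8 members with a box include Actg1, which was not called, and do not include Acta2, Tagln, Tpm1 or Cald1. A link of the box to the rises was not tested. Myl9, a myosin light chain, rose from 9.57 ± 0.487 to 16.2 ± 2.41 CPM (adjusted p = 9.75e-05), and Srf from 65.8 ± 1.51 to 80.1 ± 7.76 CPM (adjusted p = 0.00163).
Acta1: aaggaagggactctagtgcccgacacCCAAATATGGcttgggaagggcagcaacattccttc
Myl9: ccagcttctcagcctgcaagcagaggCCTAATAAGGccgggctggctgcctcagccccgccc
Srf: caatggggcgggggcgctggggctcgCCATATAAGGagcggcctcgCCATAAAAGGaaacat

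Genes that YAP and TEAD induce in spread or stretched cells moved the same way in part: 7 of 18 rose, 0 fell, and the median log2 difference was 0.27. Ccn1, a matricellular protein, stood at 17.4, 22.1 and 22.6 CPM in the uninduced libraries and 40.3, 33.8 and 33.3 CPM with no extra copy, 1.73-fold higher (log2 0.79, SE 0.106, adjusted p = 2.02e-06), with no overlap. Its relative Ccn2 rose from 51.4 ± 1.82 to 73.6 ± 4.40 CPM, Ptpn14 from 74.8 ± 1.19 to 96.8 ± 2.12 CPM and Igfbp3 from 18.6 ± 1.39 to 29.0 ± 0.485 CPM. Amotl2, also a known target, at 119.7 ± 3.05 CPM and 128 ± 4.34 CPM, was not called, nor was Gadd45a. DESeq2 called 4 of these genes higher. Of the 12 integrins and related receptors tested 6 rose and 0 fell. Itga3, a laminin-binding subunit, stood at 99.4, 92.3 and 90.7 CPM in the uninduced libraries and 137, 142 and 131 CPM with no extra copy, 1.46-fold higher (log2 0.55, SE 0.0503, adjusted p = 8.27e-10), and Itgb1, the shared beta subunit, rose from 147 ± 3.61 to 171 ± 6.78 CPM (adjusted p = 0.000490). Without uninduced replicate 2 the integrin count was 3, and with DESeq2 it was 2.

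Simple epithelial keratins, annexins, S100 proteins and galectins had the largest median rise of the lists other than those of marker genes. Of 16 tested, 14 rose and 0 fell, with a median log2 difference of 0.77. Krt8 (ENSMUSG00000049382; GRCm38 chromosome 15, 101996698 to 102004482) stood at 21.9, 23.8 and 23.2 CPM in the uninduced libraries and 58.8, 68.9 and 59.8 CPM with no extra copy, 2.75-fold higher (log2 1.46, SE 0.0934, adjusted p = 8.92e-12). Its partner Krt18 stood at 11.9, 13.6 and 14.2 CPM in the uninduced libraries and 37.4, 40.5 and 40.0 CPM with no extra copy, 2.97-fold higher (log2 1.57, SE 0.106, adjusted p = 4.34e-13). Anxa1, a calcium-dependent membrane-binding protein, stood at 6.05, 5.80 and 4.93 CPM in the uninduced libraries and 13.4, 17.1 and 14.8 CPM with no extra copy, a rise of 2.72-fold (adjusted p = 1.60e-08). The 3 libraries with no extra copy were above the 3 uninduced ones in each of them. Galectin Lgals1 rose from 59.8 ± 1.87 to 107 ± 4.38 CPM, S100a6 from 11.4 ± 0.983 to 26 ± 0.795 CPM and Anxa5 from 9.65 ± 0.682 to 19.1 ± 1.66 CPM. Of epithelial junction genes 5 of 24 rose and 1 fell, 0 without uninduced replicate 2 or 3 or without replicate 2 or 3 with no extra copy. The desmosomal Dsp rose from 12.2 ± 1.14 to 24.9 ± 3.76 CPM, plakoglobin Jup from 123 ± 1.56 to 159 ± 2.06 CPM and the claudin Cldn4 from 65.3 ± 2.22 to 88.7 ± 4.01 CPM, whereas E-cadherin Cdh1, at 404 ± 5.94 CPM and 379.7 ± 9.64 CPM, was not called.

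Matrix genes were called higher more often than lower. Of the basement membrane and matrix list 7 of 25 rose and 1 fell, with a median log2 difference of 0.20. Sparc, a collagen-binding secreted protein, stood at 113, 116 and 110.2 CPM in the uninduced libraries and 168, 179 and 178 CPM with no extra copy, 1.55-fold higher (log2 0.63, SE 0.0458, adjusted p = 2.82e-12), and did not overlap. Col18a1 rose from 439.8 ± 7.36 to 614 ± 17.6 CPM, Col4a2 from 16.5 ± 0.253 to 28.4 ± 2.70 CPM, Nid1 from 67.4 ± 4.84 to 86.5 ± 3.25 CPM and Thbs1 from 15.1 ± 3.69 to 32.9 ± 3.38 CPM. The collagen chaperone Serpinh1 fell from 194 ± 1.71 to 154 ± 7.02 CPM (adjusted p = 0.000505). Fibronectin Fn1, at 1143 ± 48.2 CPM and 1008 ± 54.6 CPM, was not called with all libraries but was without replicate 1 with 2 extra copies, which stood apart from its group; the count of falls was then 4, and 2 without uninduced replicate 2. Among markers of fibroblasts, Col1a2 stood at 9.28, 10.1 and 10.6 CPM in the uninduced libraries and 33.8, 38.5 and 36.9 CPM with no extra copy, the largest named rise. Col1a1 rose from 9.07 ± 1.06 to 25.4 ± 2.72 CPM and Col5a1 from 10.1 ± 0.0386 to 18.9 ± 3.66 CPM.

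Markers of other cell types were summed beside these rises. Of 16 fibroblast markers counted, 9 were tested and 4 were higher, and their summed level was 51.1 to 52.9 CPM in uninduced libraries and 103 to 119 CPM with no extra copy. The 7 untested markers, which include Dcn, Lum, Postn and Twist2, had at most 5 counts in any library, and Pdgfra, Pdgfrb, Thy1 and Twist1 were not called. Of the 9 tested, 7 were higher and 0 lower at an unadjusted p below 0.05 with edgeR. Of 11 smooth muscle markers 6 were tested and 4 were higher, at 127 to 132 and 208 to 227 CPM, most of it from Acta2, Tagln and Smtn. Without uninduced replicate 3, or with DESeq2, 2 were called. Myh11 and Myocd, which define that cell type, were among 5 untested markers with at most 18 counts in any library. Myh11 had 1, 2 and 2 counts in the uninduced libraries and 4, 11 and 3 with no extra copy, and Myocd had 0 in each uninduced library and 1, 1 and 2 with no extra copy, so both were higher in each library with no extra copy at counts close to 0. The part of other cell types in these rises was not tested. Trophectoderm markers summed to 158 to 175 CPM in uninduced cells and 171 to 183 CPM with no extra copy. Of 7 tested, 2 were higher, Gata2 (from 1.96 ± 0.531 to 4.32 ± 0.507 CPM) and Krt7 (from 3.19 ± 0.183 to 4.98 ± 1.24 CPM). The count was 1 without any 1 uninduced library or without replicate 2 with no extra copy, and 0 with DESeq2. Primitive streak and mesoderm markers summed to 10.3 to 12.1 and 14.6 to 19.2 CPM, without overlap. Of 4 tested, 1 was higher, Fgf8 (from 1.5 ± 0.217 to 3.11 ± 0.814 CPM), a call that ended when any 1 of the 6 libraries was left out and with DESeq2. Extraembryonic endoderm markers summed to 21.9 to 22.8 and 23.3 to 25.9 CPM, also without overlap, with 0 of 6 called. Neuroectoderm markers summed to 234 to 248 and 235 to 248 CPM. Of 8 tested, 2 were higher, Sox1 (from 26 ± 3.19 to 32.8 ± 2.70 CPM) and Dcx (from 0.561 ± 0.0558 to 1.78 ± 0.188 CPM), and Neurod1 was lower; the rises numbered 0 without uninduced replicate 1 or 2 or with DESeq2, and 1 without replicate 1 or 2 with no extra copy.

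**Figure D3:**
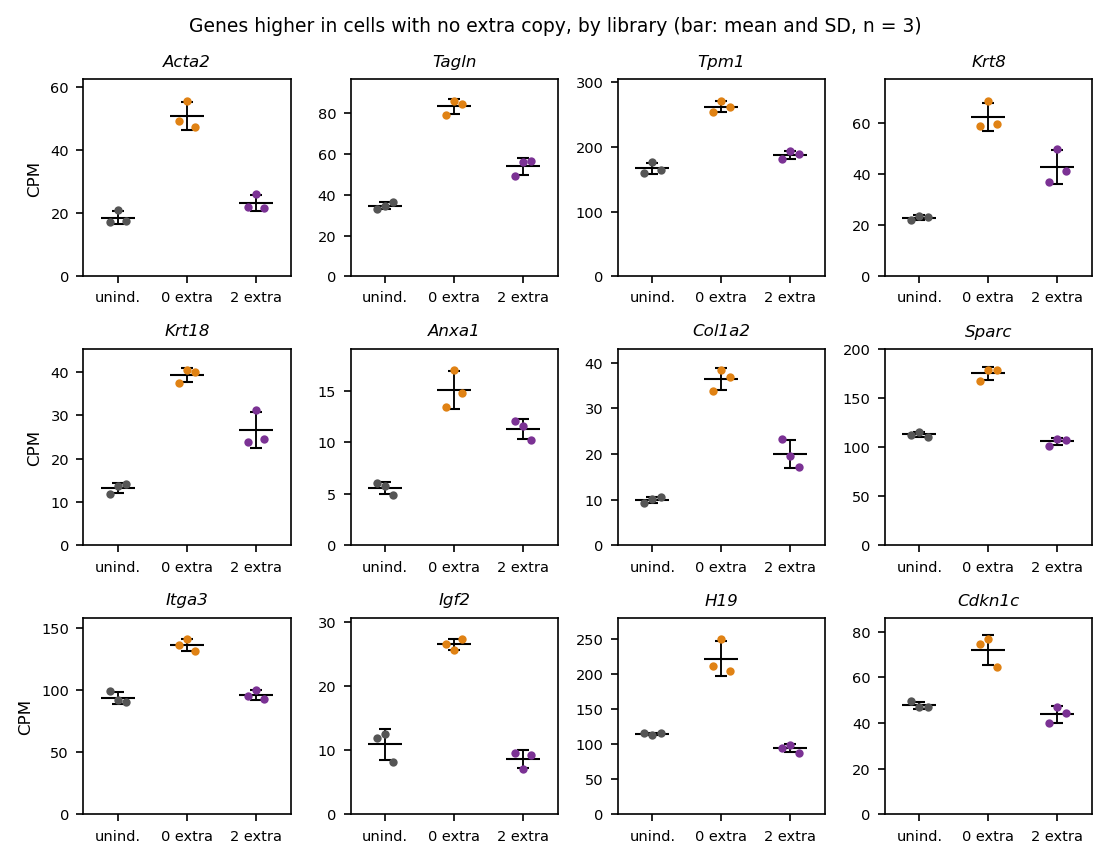
Each panel gives 1 gene's CPM (vertical axis, from 0) in the 3 uninduced libraries, the 3 with no extra copy and the 3 with 2 extra copies; points are libraries, and bars are the mean and SD. All 12 genes are higher in each library with no extra copy than in each uninduced one, and in Sparc, Itga3, Igf2, H19 and Cdkn1c the libraries with 2 extra copies lie close to the uninduced level or below it. Acta2 with 2 extra copies lies above the uninduced level, by 0.31 on the log2 scale, against 1.46 with no extra copy.

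Values of cells with 2 extra copies are given beside these rises too. For actin and contractile genes the median log2 difference from uninduced was 0.24 without extra copies and -0.03 with 2. It was 0.27 and -0.02 for YAP and TEAD targets, 0.26 and -0.06 for integrins, and 0.77 and 0.38 for keratins and annexins. Fibroblast markers had medians of 0.79 and 0.68, and summed to 78.9 to 88.0 CPM with 2 extra copies. Smooth muscle markers had medians of 0.88 and 0.17, and summed to 149 to 161 CPM with 2. In the direct test 20 of 27 actin genes were higher and 0 lower with no extra copy than with 2 extra copies. The counts were 13 and 0 of 16 for keratins and annexins, and 8 and 0 of 12 for integrins. Of all genes, 7.7% were higher and 8.3% lower in that test. Acta2 at 23.3 ± 2.53 CPM with 2 extra copies was 2.21-fold higher with no extra copy (adjusted p = 2.51e-10), and Krt8 at 42.8 ± 6.60 CPM was 1.48-fold higher (adjusted p = 4.05e-05).

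Pluripotency genes moved in a mixed pattern, with factors of the naive state up and several of the formative state down. Of 18 naive genes 9 rose and 2 fell, with a median log2 difference of 0.19. Tfcp2l1, a factor of the LIF pathway, stood at 97.1, 86.2 and 96.2 CPM in the uninduced libraries and 130.2, 129.7 and 151 CPM with no extra copy, 1.46-fold higher (log2 0.54, SE 0.0773, adjusted p = 0.000328). Tbx3 stood at 25.3, 30.2 and 28.0 CPM in the uninduced libraries and 40.5, 41.8 and 39.5 CPM with no extra copy, 1.46-fold higher (log2 0.55, SE 0.0856, adjusted p = 1.99e-05), and Klf4 at 55.8, 55.5 and 56.0 CPM in the uninduced libraries and 65.3, 69.3 and 68.8 CPM with no extra copy, 1.22-fold higher (log2 0.28, SE 0.0607, adjusted p = 0.00118). None of these 3 overlapped. Fgf4, the growth factor that ESCs secrete, rose from 74.3 ± 3.15 to 101 ± 5.85 CPM, and Fbxo15 fell from 134 ± 4.26 to 113 ± 1.59 CPM. The falls numbered 1 without uninduced replicate 2 or without replicate 2 or 3 with no extra copy. Zfp42 and Stat3 were not called. Of 14 core genes 1 rose and 3 fell, where 7.1% of all genes rose and 6.39% fell. Nanog stood at 209, 197 and 208 CPM in the uninduced libraries and 227, 230.2 and 238 CPM with no extra copy, 1.13-fold higher (log2 0.18, SE 0.0409, adjusted p = 0.00249), Pou5f1 was not called (adjusted p = 0.190), and Sox2 fell by 1.09-fold (adjusted p = 0.0253), a call that ended when any 1 of the 6 libraries was left out. Tdgf1, the Nodal co-receptor, fell from 374 ± 11.3 to 307 ± 3.99 CPM, and Sall1 from 293 ± 9.40 to 242 ± 2.80 CPM.

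Of the formative and primed list 5 of 19 rose and 7 fell. Lef1, a transcription factor of the WNT pathway, stood at 30.1, 28.7 and 26.9 CPM in the uninduced libraries and 11, 11.4 and 8.57 CPM with no extra copy, 2.69-fold lower (log2 -1.43, SE 0.115, adjusted p = 2.81e-11). Otx2, which drives exit from the naive state, stood at 35.8, 36.3 and 34.5 CPM in the uninduced libraries and 21.6, 17.6 and 20.2 CPM with no extra copy, 1.82-fold lower (log2 -0.86, SE 0.0989, adjusted p = 6.88e-08). Neither gene overlapped. Zic2 fell from 44.8 ± 4.43 to 31.0 ± 0.880 CPM, Zic5 from 67.8 ± 4.78 to 48.0 ± 0.821 CPM and the DNA methyltransferase Dnmt3b from 498 ± 12 to 433 ± 7.68 CPM. Tcf15, another gene of that transition, rose from 19.4 ± 1.39 to 30.3 ± 3.72 CPM, Etv4 from 39.9 ± 3.78 to 51.8 ± 2.34 CPM and Cdh2, N-cadherin, from 14.9 ± 1.81 to 22.0 ± 3.17 CPM. The count of rises was 3 without uninduced replicate 1 or without replicate 2 with no extra copy. Pou3f1 was not called, at 78.9 ± 4.28 CPM and 73.6 ± 2.72 CPM. Set beside this, the median log2 difference from uninduced with 2 extra copies was -0.00 for the naive list and -0.19 for the formative list. Between the induced populations Tfcp2l1 was 1.39-fold higher with no extra copy (adjusted p = 0.00110) and Nanog 1.19-fold higher (adjusted p = 5.41e-05), and Otx2 was not called (adjusted p = 0.749).

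**Figure D4:**
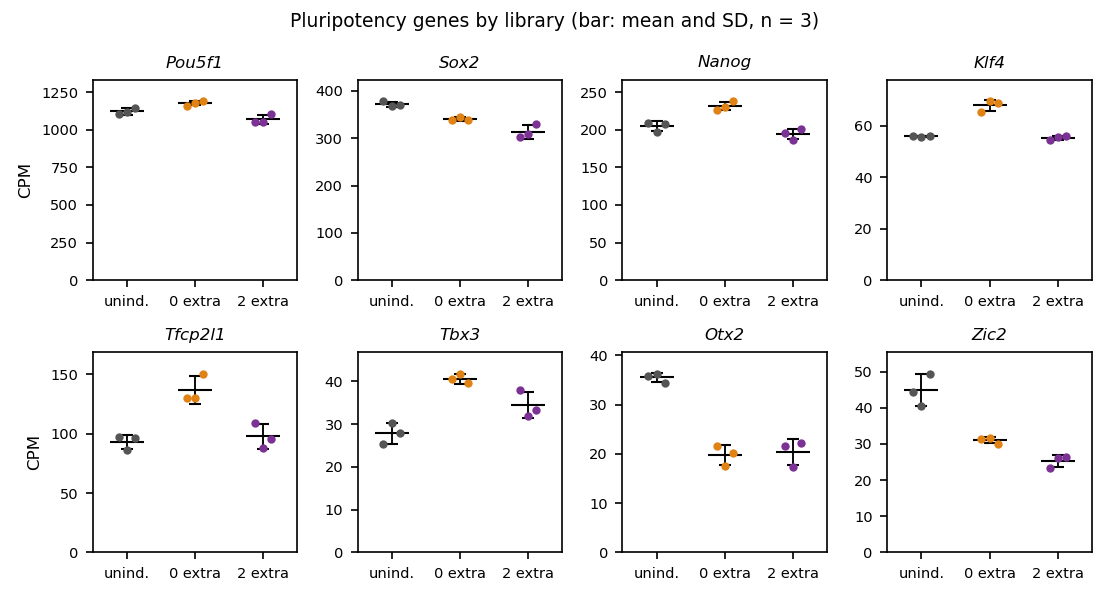
Each panel gives the CPM (vertical axis, from 0) of 1 pluripotency gene in the 3 libraries of each group, with the mean and SD as bars. Tfcp2l1, Tbx3, Klf4 and Nanog sit above the uninduced libraries with no extra copy, Otx2 and Zic2 sit below them, and Pou5f1 differs little, at 1123 ± 22.0 CPM against 1175 ± 13.8 CPM.

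Lists of signals that govern these states hold ligands, receptors and transducers as well as targets. They share members with the pluripotency lists. Klf4, Stat3, Tfcp2l1 and Gbx2 (LIF), Fgf4 and Etv4 (FGF), Tdgf1 (Nodal) and Lef1 (WNT) are counted in both. Of 13 LIF and STAT3 genes 5 rose and 1 fell; the kinases Pim1 and Pim3 rose from 204 ± 4.81 to 241 ± 7.57 CPM and from 114 ± 1.754 to 141 ± 1.87 CPM, and the LIF receptor gene Lifr fell from 32.4 ± 1.85 to 25.9 ± 1.39 CPM (adjusted p = 0.0203), a call that ended without uninduced replicate 2 or without replicate 1 or 2 with no extra copy. Of 14 BMP and Id genes 5 rose and 0 fell. Id3, a BMP target that inhibits differentiation factors, stood at 5.20, 5.04 and 6.77 CPM in the uninduced libraries and 13.1, 12.7 and 13.3 CPM with no extra copy, 2.31-fold higher (log2 1.21, SE 0.159, adjusted p = 9.57e-07), without overlap. Bmp4 rose from 7.49 ± 0.271 to 11.4 ± 1.65 CPM, but its call ended without replicate 2 with no extra copy, when 2 of the list were called. DESeq2 called 1. Of 17 genes of FGF and ERK feedback 5 rose and 0 fell. The rises numbered 2 without replicate 2 with no extra copy or with DESeq2, and 3 without uninduced replicate 2. The ERK-responsive Etv5, at 417 ± 9.36 CPM and 413 ± 2.79 CPM, was not called. In the WNT list 1 of 16 fell, Lef1, and 1 rose, whose call ended when any 1 of the 6 libraries was left out. Of all genes, 6.39% fell and 7.1% rose. Beta-catenin, Ctnnb1, stood at 868 ± 14.3 CPM and 898 ± 9.28 CPM. The ligand gene Wnt7b, in none of the lists, rose from 5.53 ± 0.672 to 14.6 ± 0.483 CPM (adjusted p = 6.47e-08) and stood at 5.82 ± 1.11 CPM with 2 extra copies. Of 15 Nodal and Activin genes 3 rose and 3 fell, and the count of rises was 0 without uninduced replicate 1, without replicate 2 with no extra copy, or with DESeq2.

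Most genes of mitosis were lower by a small amount. Of 30 tested 21 fell and 0 rose, against 6.39% of all genes lower, with a median log2 difference of -0.17, and differences ran from -0.47 to 0.07. Top2a, the topoisomerase of mitotic chromosomes, stood at 1110.1, 1074 and 1057 CPM in the uninduced libraries and 877, 876 and 885 CPM with no extra copy, 1.23-fold lower (log2 -0.30, SE 0.0339, adjusted p = 6.64e-08). The spindle motor Kif11 stood at 246, 238 and 243 CPM in the uninduced libraries and 196, 203 and 204 CPM with no extra copy, 1.21-fold lower (log2 -0.27, SE 0.0392, adjusted p = 5.96e-06). Both genes were lower in each library with no extra copy. Tpx2 fell from 316 ± 9.41 to 265 ± 12.9 CPM, Prc1 from 209 ± 1.58 to 175 ± 5.49 CPM and the centromeric histone Cenpa from 189.6 ± 4.22 to 158 ± 4.09 CPM, while Cdk1, at 183 ± 7.27 CPM and 172 ± 5.08 CPM, was not called. Without replicate 2 with no extra copy 11 fell, DESeq2 called 13, and 0 passed a change beyond 1.2-fold. With 2 extra copies the list's median difference from uninduced was 0.04, and 23 of 30 were lower with no extra copy than with 2 extra copies (0 higher). In that direct test 8.3% of all genes were lower and 7.7% higher.

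Of 36 DNA replication genes 6 rose and 2 fell, with a median log2 difference of 0.04. Thymidine kinase Tk1 rose from 68.2 ± 3.52 to 83.9 ± 4.46 CPM (adjusted p = 0.000278), and the helicase subunit Mcm2 stood at 502 ± 3.95 CPM and 513 ± 17.3 CPM. The rises numbered 3 without uninduced replicate 2 or 3 or without replicate 2 with no extra copy, and the falls 0 without uninduced replicate 2 and 1 without uninduced replicate 1 or 3 or replicate 1 or 2 with no extra copy. Of 23 regulators of G1 and S phase 7 rose and 4 fell. The imprinted cell-cycle inhibitor Cdkn1c stood at 49.5, 46.9 and 47.0 CPM in the uninduced libraries and 74.8, 77.0 and 64.8 CPM with no extra copy, 1.53-fold higher (log2 0.61, SE 0.0698, adjusted p = 6.30e-08). Cyclin D3, Ccnd3, stood at 131, 128 and 130.4 CPM in the uninduced libraries and 165, 175 and 187 CPM with no extra copy, 1.35-fold higher (log2 0.43, SE 0.0460, adjusted p = 2.09e-08). Neither overlapped, and both were also higher than with 2 extra copies (adjusted p = 9.45e-09 and adjusted p = 1.48e-07). Cyclin E1, Ccne1, rose from 259 ± 13.3 to 311 ± 6.88 CPM. Ccng2, a cyclin linked to arrest, fell from 26 ± 3.93 to 13 ± 1.79 CPM, and the inhibitor Cdkn1b fell from 55.1 ± 4.28 to 39.3 ± 3.43 CPM. The counts of rises and falls were 4 without uninduced replicate 1 or replicate 2 with no extra copy, and 2 without uninduced replicate 2 or replicate 1 with no extra copy, respectively.

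**Figure D5:**
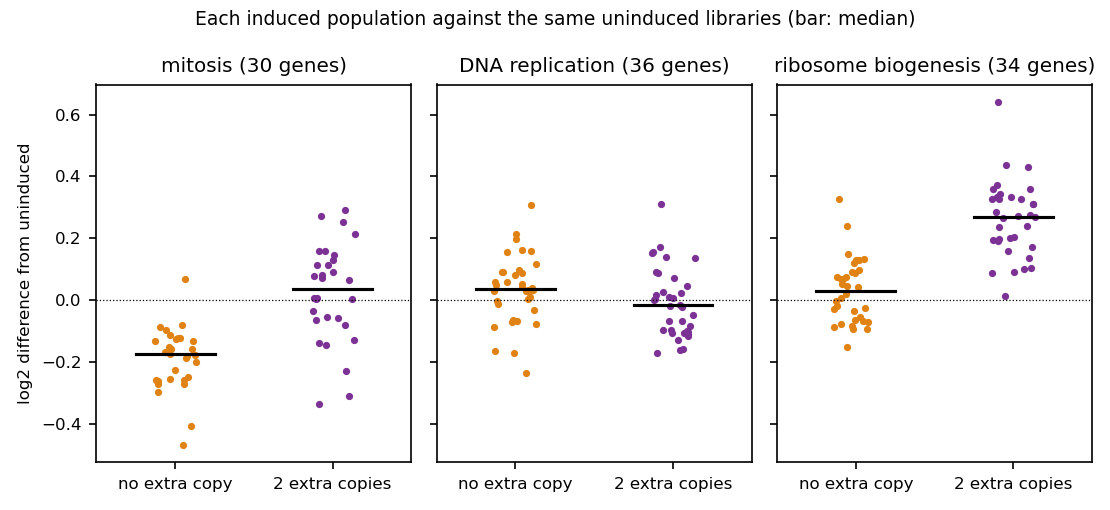
Each point is 1 gene of the list named above its panel, placed by its log2 difference from the same 3 uninduced libraries (vertical axis) for no extra copy on the left and 2 extra copies on the right; the bar is the median. Mitosis genes centre on -0.17 without extra copies and 0.04 with 2, and ribosome biogenesis genes on 0.03 and 0.27.

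Targets of p53 included more rises than falls. Of 26 tested 10 rose, against 7.1% of all genes, and 3 fell, with a median log2 difference of 0.10. Sesn2 is counted among ATF4 and CHOP targets too, and Cdkn1a among regulators of G1 and S phase. Perp, a desmosomal protein, rose from 30.7 ± 1.44 to 41.6 ± 1.40 CPM, the cell-cycle inhibitor Cdkn1a from 51.9 ± 3.20 to 62.6 ± 2.26 CPM (adjusted p = 0.00280), and Zfp365 from 42.1 ± 3.44 to 54.9 ± 4.54 CPM. Bax and Ccng1 were not called. The rises numbered 6 without uninduced replicate 2 or without replicate 2 with no extra copy, 5 with DESeq2, and 0 under the criterion of 1.2-fold. The falls numbered 1 without uninduced replicate 2 or 3 or without replicate 2 or 3 with no extra copy. Of 25 genes of the BCL2 family and caspases 1 rose (0 with DESeq2) and 2 fell, or 1 to 4 with single libraries left out. Among all genes 7.1% rose and 6.39% fell. Hrk, which encodes a proapoptotic BH3-only protein, was among the falls, and went from 11.8 ± 1.6 to 6.76 ± 0.837 CPM (adjusted p = 0.000556). The survival gene Mcl1 stood at 590.4 ± 15 CPM and 592 ± 10.3 CPM.

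Growth genes known to follow Myc were counted by group. Of 34 genes of ribosome biogenesis 5 rose and 2 fell, against 7.1% and 6.39% of all genes, with a median log2 difference of 0.03. Nop10 rose from 82.3 ± 5.31 to 103 ± 6.04 CPM and Nip7 from 105 ± 3.06 to 124 ± 1.58 CPM, Nop56 fell from 539 ± 13.9 to 485 ± 17.7 CPM, and nucleolin, Ncl, at 2406 ± 57.6 CPM and 2478 ± 61.2 CPM, was not called. The rises numbered 2 without uninduced replicate 1 or replicate 2 with no extra copy, and 3 without replicate 3 with no extra copy. The falls numbered 1 in 6 of the 9 fits with a library left out. With 2 extra copies the median was 0.27, and 31 of 34 were lower with no extra copy than with 2 extra copies. In that direct test 8.3% of all genes were lower. Of 36 cytosolic ribosomal protein genes edgeR called 0 in either direction, and their median was 0.00; with the length trend removed 11 were called lower. Of 28 respiratory chain genes 6 rose, among them Sdhd (from 94.2 ± 2.44 to 114 ± 6.52 CPM), and 1 fell (0 without replicate 2 with no extra copy, 2 without replicate 1 with 2 extra copies). Of 28 genes of sterol and fatty acid synthesis 0 rose and 5 fell, a count that was 1 after leaving out uninduced replicate 1, 8 after leaving out replicate 1 of the cells with 2 extra copies, and 0 with DESeq2.

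Imprinted genes, expressed from 1 parental copy and often tied to growth, moved in both directions. Of 35 tested 9 rose and 5 fell. Cdkn1c, given above, is counted in this list too. Igf2 (ENSMUSG00000048583; GRCm38 chromosome 7, 142650766 to 142666816), the growth factor, stood at 11.9, 12.6 and 8.16 CPM in the uninduced libraries and 26.5, 25.7 and 27.4 CPM with no extra copy, 2.39-fold higher (log2 1.26, SE 0.126, adjusted p = 4.48e-09). Its neighbour H19 (ENSMUSG00000000031; GRCm38 chromosome 7, 142575529 to 142578143), a noncoding RNA of the other parental copy, stood at 116, 113 and 115 CPM in the uninduced libraries and 211, 250.1 and 203 CPM with no extra copy, 1.95-fold higher (log2 0.96, SE 0.0698, adjusted p = 5.66e-07). In both the groups were apart, and cells with 2 extra copies stood at 9.64, 7.05 and 9.27 CPM for Igf2 and 94.5, 99.2 and 87.8 CPM for H19, below the level with no extra copy (adjusted p = 5.10e-10 and adjusted p = 1.26e-07). An annotated gene near-identical to Igf2 can share its reads. Peg10 rose from 606 ± 4.10 to 793 ± 15.2 CPM, Nnat from 28.3 ± 1.09 to 48.4 ± 7.28 CPM and Mest, which overlaps a gene on the other strand, from 167 ± 1.88 to 223 ± 9.46 CPM. Falls were seen in Grb10, an inhibitor of insulin signalling, from 351 ± 6.08 to 261 ± 14.6 CPM, and in the noncoding RNAs of the Dlk1 region, Meg3 (from 620.3 ± 11.9 to 487 ± 22.2 CPM) and Rian (from 683 ± 30.4 to 556 ± 17.5 CPM). With the length trend removed Meg3 was not called. The median log2 difference of the list was 0.08 without extra copies and -0.24 with 2. Of the IGF axis 3 of 13 rose and 0 fell: Igf2, Igfbp3 and Irs2. Igf2 is counted among imprinted genes too, and Igfbp3 among YAP and TEAD targets. Irs2, the insulin receptor substrate, went from 31.0 ± 2.40 to 39.3 ± 4.53 CPM (adjusted p = 0.00546), a call that ended without replicate 2 with no extra copy. The receptor gene Igf2r, at 172 ± 14.1 CPM and 164 ± 7.89 CPM, was not called.

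Genes of the rare two-cell-like state, in which ESCs express genes of the embryo after its first cleavage, were higher. Of 16 tested 9 rose and 0 fell, with a median log2 difference of 0.54, against 1.08 with 2 extra copies. Usp17la, a deubiquitinase gene of the family, stood at 8.15, 6.18 and 7.39 CPM in the uninduced libraries and 10.7, 11.6 and 11.4 CPM with no extra copy, 1.56-fold higher (log2 0.65, SE 0.150, adjusted p = 0.00271), and at 16.1, 17.5 and 19.1 CPM with 2 extra copies. Zscan4d rose from 24.3 ± 2.38 to 33.0 ± 4.41 CPM, and Zscan4c, at 46.7 ± 6.83 CPM and 67.7 ± 13.4 CPM, was not called except without replicate 2 with no extra copy or with DESeq2. Some members, among them Zscan4c, Zscan4d and Usp17lc, have near-identical annotated copies that can share reads. The count of rises was 3 without replicate 1 with no extra copy, 4 and 5 without uninduced replicate 2 and 3, and 5 with DESeq2.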

How the data were processed

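Single-end 75 bp reads were sequenced, per the labels' protocols. Values are expected counts of each gene, which the authors made with RSEM 1.17 on GRCm38, release 84, per the file headers together with the submitters' processing notes. These also name cutadapt, Picard and limma. The aligner and any use of strand are not given in the sources used here. Columns were matched to samples by their names in the labels, and counts were rounded.

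Genes passing the filter of edgeR (filterByExpr, by group) held 99.8% of counts. They were tested in 1 fit of all 9 libraries with edgeR 4.0.16 in R 4.3.3 (quasi-likelihood F-test, robust, TMM scaling, 1 term per group), and p was adjusted by Benjamini-Hochberg over all genes tested. Every adjusted p is from this test unless another is named. SE is the log2 difference over the square root of F, CPM is scaled by TMM, and SD is over 3 libraries. A common biological coefficient of variation of 0.0394 was estimated. The procedure was tested on simulated counts. Alternatives were DESeq2 1.42.0, limma-voom (limma 3.58.1), other scaling and filters, the 6 libraries alone, a replicate block, removal of the length trend, a 1.2-fold criterion, and each library left out.

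Symbols came from GENCODE M21, for 35432 of 35771 identifiers. The members, the lists and the naming rule were chosen with earlier results of these data known. The rule took the 15 largest rises and falls among called genes that averaged 10 CPM or more and had a proper symbol and no overlap between groups. From each of 45 lists it took up to 5 called members per direction with the smallest p and up to 2 not called with the highest mean. Myc, its relatives and 3 core pluripotency genes were always named. The genes plotted were chosen among these with their values known. Transcripts of named genes were compared with all others by minimap2 2.31-r1302 (at least 95% identity over 50%), and exon overlaps of 15% or more counted by bedtools 2.31.1; genes that share sequence or exons this way have uncertain values, among them Bnip3, Pgk1, Igf2, Mest, Actg1, Mcm7, Snrpn, Zscan4c and Zscan4d. Promoter windows are from RefSeq, GRCm38.p6. The values of 1 gene that the rule names are not reported here.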

Additional observations from a re-analysis of the deposited data

Results flagged for a closer look

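For 9 named genes, all of them called against uninduced cells, the difference from uninduced cells was not the same in the 2 induced populations, by a test of the populations against each other with an adjusted p below 0.05 (edgeR) and at least 2-fold apart. The first value in each case is the log2 difference of cells with no extra copy minus cells with 2 extra copies. Myc was at -2.18, with 1.24 and 3.42 as the log2 differences from uninduced. The populations were sorted for no or 2 extra copies of Myc, so a lower Myc with no extra copy was set by the design. Igf2 was at 1.598, with 1.26 and -0.34, and its neighbour H19 at 1.26, with 0.96 and -0.29. Acta1 was at 1.40, with 1.51 and 0.11, and Acta2 at 1.15, with 1.46 and 0.31. Wnt7b was at 1.31, with 1.39 and 0.08. Cyp1b1, an enzyme induced through the aryl hydrocarbon receptor, was at 1.02, with 0.84 and -0.18; its level was 4.80 ± 0.428 CPM in uninduced cells and 8.41 ± 1.65 CPM with no extra copy, and its call ended without replicate 2 with no extra copy. Id4 was at 1.22 and the neuronal gene Dcx at 1.37. Both are near the limit of detection, at 2.85 ± 0.579 CPM and 1.78 ± 0.188 CPM with no extra copy. Their calls against uninduced cells ended without uninduced replicate 1 or replicate 2 with no extra copy for Id4, and without uninduced replicate 1 or 2 or replicate 1 with no extra copy for Dcx.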

How the results depend on the processing

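DESeq2 called 806 genes (399 higher, 407 lower), and a criterion of more than 1.2-fold left 234 (125 and 109). With each library left out in turn the count ran from 1177, without replicate 2 with no extra copy, to 2201, without replicate 1 with 2 extra copies; rises ran from 622 to 1083 and falls from 555 to 1118. Under the other scalings, filters and limma-voom, and with the length trend removed or the 6 libraries alone, the counts stayed within 1.5 times of the reported ones. Upper-quartile factors gave 868 higher and 953 lower and library sizes alone 1105 and 742, so which direction has more calls depends on scaling. Same-numbered libraries of uninduced cells and cells with no extra copy did not deviate together (r of 0.019, -0.056 and -0.078). A pair with different numbers reached 0.12. With 3 libraries a group this cannot exclude that same-numbered libraries share a culture. Pairing of the induced populations was not checked. A replicate block called 1933. Of 204 named genes called, 75 kept the call in all alternatives that gave them a value, and no named gene reversed. DESeq2 ended 55 of these calls and gave no adjusted p for 22 named genes. It called 3 rises and 0 falls in DNA replication, 4 and 2 among regulators of G1 and S phase, and 2 and 1 in ribosome biogenesis. Lysosome and autophagy genes had 3 rises with DESeq2, and LIF and STAT3 genes 0 falls. Under the 1.2-fold criterion HIF targets had 10 falls, glycolysis 7 and synthetases 3, and actin genes had 6 rises and keratins and annexins 9. Totals of 4165286 to 8872303 counts and 3 libraries a group limit calls of small changes.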

Other observations

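Genes that NRF2 induces against oxidative stress were partly higher with no extra copy: 8 of 19 rose and 1 fell, with a median log2 difference of 0.15. Carbonyl reductase Cbr3 stood at 19.5, 18.5 and 16.8 CPM in the uninduced libraries and 34.8, 31.8 and 37.1 CPM with no extra copy, 1.86-fold higher (log2 0.90, SE 0.0935, adjusted p = 1.13e-08), with no overlap, and at 43.1, 43.2 and 45.1 CPM with 2 extra copies. Sulfiredoxin, Srxn1, rose from 35.5 ± 3.27 to 48.5 ± 3.4 CPM, Gclm, a subunit of the enzyme that starts glutathione synthesis, from 84.7 ± 3.37 to 102 ± 4.31 CPM, and ferritin heavy chain, Fth1, from 572 ± 26.6 to 668 ± 17.5 CPM. The 1 fall was Slc7a11, which is also an ATF4 target and is counted in that list too. Prdx1, at 1007 ± 11.9 CPM and 1069 ± 11.6 CPM, was not called with TMM scaling.

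Of 26 lysosome and autophagy genes 7 rose and 1 fell, although the rises numbered 3 without uninduced replicate 1 or 3 or without replicate 2 with no extra copy, and 4 without replicate 3 with no extra copy. Npc2, which moves cholesterol out of lysosomes, rose from 119 ± 7.25 to 145 ± 5.31 CPM (adjusted p = 9.34e-05). Of 17 immediate early and heat shock genes 3 rose and 1 fell. Jund rose from 84.8 ± 8.03 to 106 ± 7.16 CPM and the small heat shock gene Hspb1 from 315 ± 10.1 to 427 ± 9.56 CPM, whereas Ier3 fell from 11.2 ± 3.07 to 5.995 ± 1.13 CPM; Jund lies under another gene for 52.6% of its exonic bases and Hspb1 has a near-identical copy. Hspa8 stood at 2204 ± 39.8 CPM and 2209 ± 73.3 CPM. Of 9 interferon-stimulated genes edgeR called 0 in either direction, with 1 lower at an unadjusted p below 0.05, and DESeq2 and limma-voom called 0.

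By chromosome, of 490 genes tested on X, 21 were higher and 52 lower, with a median log2 difference of -0.063, where 7.1% and 6.39% of all genes were higher and lower. On chromosome 8, 67 of 708 were higher and 30 lower. Neither chromosome was named by a rule; both were chosen after the counts were seen, and no test was made of them.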
